A study of Mus musculus with 17 samples.

Results

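Monocytes that patrol the lung capillaries and macrophages of the lung tissue are read here through 10 genes: Adgre4, Treml4, Cx3cr1, Spn, Plac8, Csf1r, Adgre1, C1qa, C1qb and C1qc. The genes were chosen by name, with the strong fall of Adgre4 in lung lesions in view, and each was taken at the transcript cluster carrying its symbol alone. A transcript cluster is the set of exon probes summarised into a single value for a gene. All 10 genes had exactly 1 such transcript cluster, among 14939 with 1 symbol and 23238 in all. Because Adgre4 led to the choice, its differences between lesions and lung and between the lesions are given as a description without a test. The other 9 genes were chosen with earlier results of these arrays known, so their p-values in comparisons of lesions are no independent evidence.

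Nonclassical, or patrolling, monocytes crawl along the inner wall of small vessels and depend on the nuclear receptor Nr4a1. Classical monocytes leave the blood with the help of the chemokine receptor Ccr2 and can become macrophages, while interstitial macrophages live in the connective tissue between the alveoli. The receptor encoded by Csf1r binds the growth factors Csf1 and Il34 and keeps monocytes and macrophages alive. C1q, built from the chains encoded by C1qa, C1qb and C1qc, starts the classical complement pathway and is made largely by tissue macrophages.

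The study collected 4 lung adenocarcinomas from SPC/c-Raf transgenic mice aged 11.5 to 14 months, 4 dysplasias and 4 pieces of microscopically unaltered lung from SPC/c-Raf transgenic mice aged 5 to 6 months, and 5 lungs of non-transgenic mice aged 7 to 11 months. The SPC promoter drives c-Raf, a kinase of the growth signalling cascade, in alveolar type II cells, and all transgenic samples carry it, the unaltered tissue included. Tissue was cut by laser from haematoxylin-stained cryosections, and its RNA was depleted of ribosomal RNA, amplified and hybridised to Affymetrix mouse exon arrays. Each dysplasia shares its animal label with 1 unaltered sample, and 1 array each of the adenocarcinoma, dysplasia and unaltered groups names 2 animals. Age and tissue cannot be fully told apart, because the ages of adenocarcinoma, non-transgenic and younger transgenic mice do not overlap. Only dysplasia and unaltered lung came from mice of the same ages.

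The deposited values are on a log2 scale, where a difference of 1 is a doubling, and the array medians lay between 6.67 and 6.85. Sftpc and 8 other alveolar type II cell genes had mean levels of 12.84 to 12.87 in adenocarcinoma, 12.63 to 12.74 in dysplasia, 12.29 to 12.33 in unaltered lung and 12.0 to 12.2 in non-transgenic lung. The non-transgenic arrays fell into 2 sets. Spearman correlations over all values were 0.975 to 0.980 between replicates 1 to 3 and replicates 4 and 5, but 0.989 to 0.992 among replicates 1 to 3. By the labels, all dysplasia and unaltered samples came from males. Females gave 1 of the 4 adenocarcinomas and 3 of the 5 non-transgenic lungs, so labelled sex and group cannot be fully told apart. Eif2s3y and Kdm5d, which lie on the Y chromosome, were low on non-transgenic replicates 4 and 5 alone, and on 4 arrays their levels contradict the sex in the labels. Results that changed when either set was left out are given with both values.

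Sequence before the gene start is shown for the 2 genes with the largest falls and for 2 of the C1q genes, whose levels moved the other way. The capitals mark GAGGAA or its reverse complement TTCCTC, a core bound by the myeloid transcription factor PU.1, searched on both strands of the 250 bases before each gene start. The sequences are from RefSeq, build GRCm38.p6, printed 5′ to 3′ on the strand of the gene. Each stretch ends at the gene's outermost annotated base, which leaves 250 bases for Adgre4 and C1qb, 155 for Treml4 and 228 for C1qc. They lie at chr17:55749734-55749983 on the plus strand for Adgre4, chr17:48264045-48264199 on the plus strand for Treml4, chr4:136886201-136886450 on the minus strand for C1qb and chr4:136892937-136893164 on the minus strand for C1qc.
Adgre4: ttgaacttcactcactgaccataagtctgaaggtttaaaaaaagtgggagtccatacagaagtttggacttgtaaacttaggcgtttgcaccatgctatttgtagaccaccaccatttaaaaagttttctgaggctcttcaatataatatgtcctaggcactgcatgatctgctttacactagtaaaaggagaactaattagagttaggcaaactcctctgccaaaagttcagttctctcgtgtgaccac
Treml4: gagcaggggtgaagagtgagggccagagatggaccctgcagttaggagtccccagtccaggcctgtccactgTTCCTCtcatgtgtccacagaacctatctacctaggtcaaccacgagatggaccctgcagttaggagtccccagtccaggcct
C1qb: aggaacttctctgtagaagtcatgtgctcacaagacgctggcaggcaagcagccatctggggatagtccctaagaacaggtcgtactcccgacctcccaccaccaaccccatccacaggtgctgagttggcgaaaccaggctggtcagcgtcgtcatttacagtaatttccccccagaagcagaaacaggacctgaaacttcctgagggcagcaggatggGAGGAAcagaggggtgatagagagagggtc
C1qc: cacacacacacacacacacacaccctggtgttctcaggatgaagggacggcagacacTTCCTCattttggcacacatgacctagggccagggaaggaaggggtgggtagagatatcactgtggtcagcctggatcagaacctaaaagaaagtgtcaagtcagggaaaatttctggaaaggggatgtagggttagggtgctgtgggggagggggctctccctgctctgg
The stretch printed for Adgre4 held no GAGGAA on either strand and had a G and C content of 39.6%. Treml4 and C1qc each held 1 match on the reverse strand and C1qb 1 on the forward strand, with G and C contents of 58.1%, 53.9% and 55.2% for Treml4, C1qc and C1qb. Of the 7 members with an entry in the promoter table, 4 held GAGGAA, namely C1qb, C1qc, Plac8 and Treml4, and so did 23.3% of all 32851 promoters searched. The longer form GAGGAAGT, which contains GAGGAA, was in C1qc and in 2.44% of promoters. AAAGGTCA, the form bound by single Nr4a receptors, was in none of the 7 members and in 1.34% of promoters. C1qa, C1qb and C1qc lie side by side on chromosome 4, whereas Adgre4, Treml4 and Adgre1 lie apart from each other on chromosome 17.

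Adgre4, Treml4, Plac8 and Spn had their lowest group means in the adenocarcinomas, whereas Cx3cr1 did not. Adgre4, an adhesion receptor of mouse myeloid cells, had 4.35, 4.26, 4.65 and 4.38 in adenocarcinoma, 6.78, 6.11, 5.06 and 6.79 in dysplasia, 7.41, 6.78, 6.19 and 7.02 in unaltered lung and 7.95, 7.92, 7.93, 7.43 and 7.70 in non-transgenic lung. All adenocarcinomas lay below all dysplasias, dysplasia and unaltered lung overlapped, and non-transgenic lung lay above every other array. In bulk tissue such as this, fewer cells of a type and less RNA per cell cannot be told apart.

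Treml4, a receptor known in mice to bind dying cells and to be carried by patrolling monocytes, had 6.05, 5.62, 5.54 and 5.94 in adenocarcinoma and 6.88, 6.66, 6.67 and 6.81 in dysplasia. The values were 7.37, 6.81, 6.57 and 6.89 in unaltered lung and 7.53, 7.48, 7.73, 8.01 and 7.87 in non-transgenic lung. The order of the groups and their overlaps were those of Adgre4. Plac8, a small cysteine-rich protein of monocytes and other leukocytes, had 7.05, 6.62, 6.55 and 6.66 in adenocarcinoma, 7.64, 7.38, 6.88 and 7.77 in dysplasia, 7.79, 7.66, 7.57 and 7.84 in unaltered lung and 8.30, 8.41, 8.47, 8.42 and 8.03 in non-transgenic lung. Neighbouring groups overlapped for Plac8, except that non-transgenic lung lay above the rest.

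Spn, which encodes the sialoprotein CD43 of patrolling monocytes and T cells, had 6.36, 6.51, 6.44 and 6.31 in adenocarcinoma, 6.70, 6.77, 6.48 and 6.83 in dysplasia, 7.38, 7.10, 6.37 and 6.72 in unaltered lung and 7.12, 7.57, 7.71, 7.45 and 7.00 in non-transgenic lung. Its group means followed the order of Adgre4, and every neighbouring pair of groups overlapped. Cx3cr1, the receptor that holds patrolling monocytes to the ligand Cx3cl1 on vessel walls, had 7.58, 7.19, 7.56 and 7.64 in adenocarcinoma, 7.41, 6.94, 7.09 and 7.29 in dysplasia, 7.03, 7.01, 6.76 and 6.81 in unaltered lung and 7.17, 7.42, 7.38, 7.74 and 7.53 in non-transgenic lung. Here unaltered lung was lowest, and adenocarcinoma and non-transgenic lung covered nearly the same range.

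Among the macrophage genes, the C1q chains were highest in adenocarcinoma and Csf1r was lowest there. Csf1r had 9.01, 8.92, 8.96 and 8.95 in adenocarcinoma, 9.26, 9.04, 8.91 and 9.25 in dysplasia, 9.54, 9.25, 9.27 and 9.36 in unaltered lung and 9.58, 9.73, 9.66, 9.45 and 9.34 in non-transgenic lung. Neighbouring groups overlapped, and adenocarcinoma lay below both kinds of lung. Adgre1, an adhesion receptor used as a general marker of mouse macrophages, had 8.57, 8.31, 8.47 and 8.42 in adenocarcinoma, 8.30, 8.30, 8.47 and 8.31 in dysplasia, 8.34, 8.16, 8.60 and 8.32 in unaltered lung and 7.56, 7.65, 7.64, 8.44 and 8.31 in non-transgenic lung. Non-transgenic replicates 1 to 3 were low and replicates 4 and 5 lay among the transgenic samples.

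C1qa had 9.62, 9.20, 9.52 and 9.30 in adenocarcinoma, 8.57, 8.67, 8.57 and 8.53 in dysplasia, 7.53, 8.07, 8.60 and 8.08 in unaltered lung and 7.93, 8.10, 7.79, 8.63 and 8.20 in non-transgenic lung. C1qb had 9.72, 9.73, 9.81 and 9.90 in adenocarcinoma, 8.83, 9.18, 9.12 and 8.94 in dysplasia, 8.09, 7.92, 8.80 and 8.07 in unaltered lung and 8.33, 8.34, 8.32, 8.95 and 8.81 in non-transgenic lung. C1qc had 8.13, 8.13, 8.17 and 8.15 in adenocarcinoma, 7.10, 7.51, 7.64 and 7.15 in dysplasia, 6.73, 7.01, 7.13 and 6.49 in unaltered lung and 6.56, 6.79, 6.65, 7.48 and 7.40 in non-transgenic lung. For all 3 chains every adenocarcinoma lay above every other array, and dysplasia, non-transgenic lung and unaltered lung followed in that order of group means, each overlapping the next. Unaltered replicate 3 was the highest of its group for each chain, and non-transgenic replicates 4 and 5 were the highest of theirs.

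**Figure D1:**
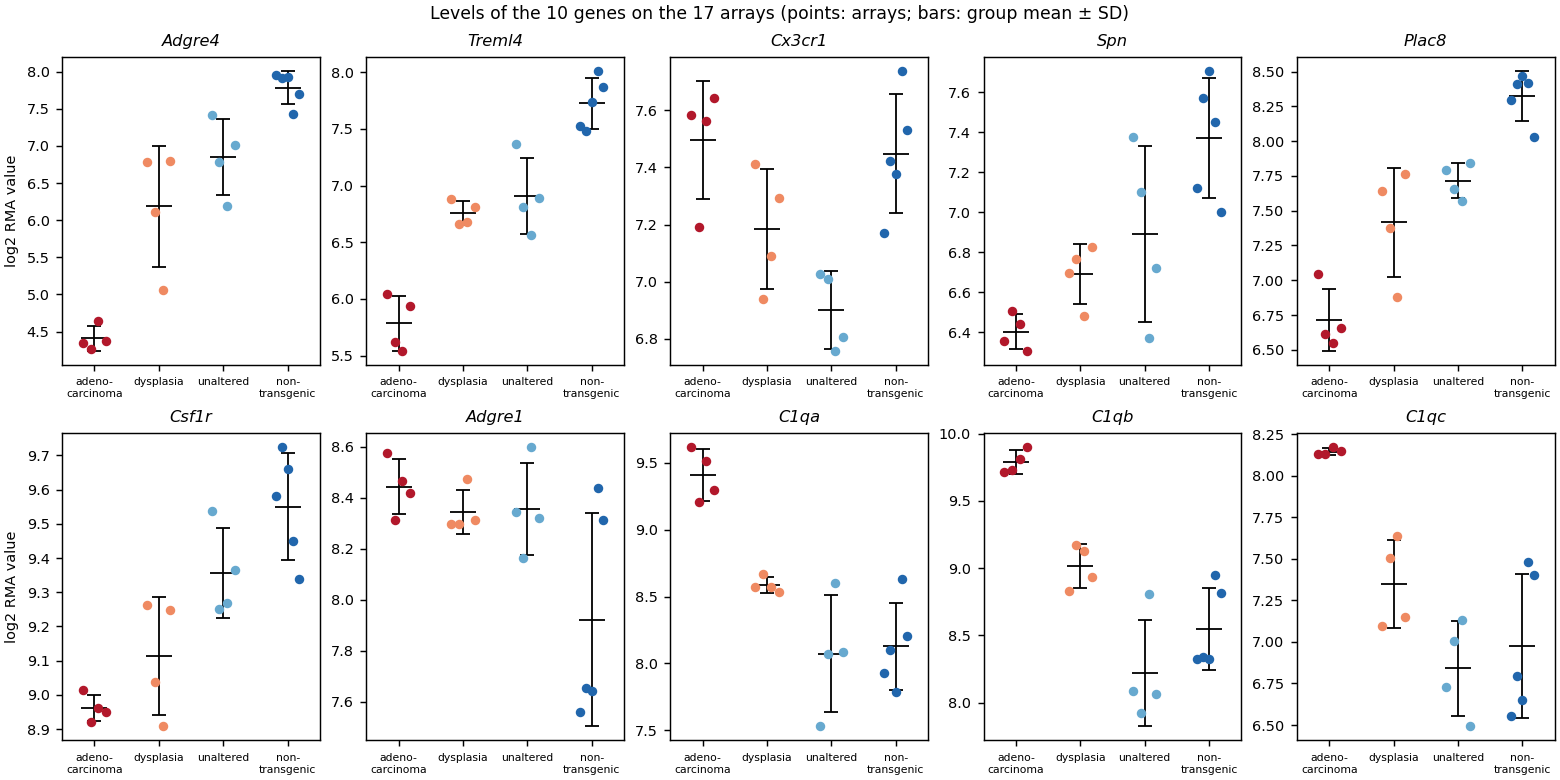
Levels of the 10 genes, as log2 values on the vertical axis of each panel, in adenocarcinoma, dysplasia, unaltered and non-transgenic lung. Points are arrays and bars give the group mean and SD. Adgre4 and Treml4 are lowest in adenocarcinoma, at 4.26 to 4.65 and 5.54 to 6.05, while each C1q gene is highest there.

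In adenocarcinoma against non-transgenic lung, Adgre4, Treml4, Plac8 and Spn were lower while the C1q genes were higher. Adgre4 averaged 4.41 ± 0.17 in adenocarcinoma and 7.78 ± 0.22 in non-transgenic lung (SD, n = 4 and 5), a difference of -3.38 ± 0.28 (standard error) between the measured values. Its adenocarcinoma values of 4.26 to 4.65 lay below the lower quartile of every array, 4.97 to 5.11. They are not shown to be above background, so no fold is given. Treml4 fell by 1.94 ± 0.15 on the log2 scale (standard error) and was 3.83-fold lower, and Plac8 was 3.05-fold lower. The C1q chains rose 2.43-fold for C1qa, 2.36-fold for C1qb and 2.25-fold for C1qc. The receptor gene Csf1r was 1.5-fold lower in the same tumours.

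These differences were tested with limma across all transcript clusters, with Benjamini-Hochberg adjustment and a threshold of 0.05. Of the 9 genes tested, 4 rose, 4 fell and 1 did not pass, while 30.0% of all transcript clusters passed in this comparison, 13.6% as higher and 16.4% as lower values. The limma adjusted p was 6.01e-08 for Treml4, 5.84e-07 for Plac8, 0.000521 for Spn and 0.000103 for Csf1r. For the C1q chains it was 6.23e-05, 3.42e-05 and 0.00014 for C1qa, C1qb and C1qc. Cx3cr1 differed by 0.05 ± 0.13 with a 95% interval of -0.23 to 0.32 and a limma adjusted p of 0.824, an interval that leaves room for small differences in either direction.

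Adgre1 rose by 0.52 ± 0.16 against non-transgenic lung with a limma adjusted p of 0.0237. Without non-transgenic replicates 1 to 3 the difference was 0.07 with an adjusted p of 0.74, and it also missed the threshold without any single array of these 3, with adjusted p of 0.0613 to 0.0627. The call was also lost without adenocarcinoma replicate 1 or replicate 3, at adjusted p of 0.0641 and 0.0542. The fall of Spn missed the threshold when age was a covariate, at an adjusted p of 0.0533. The values of 8 of the 10 genes did not overlap between the groups, as was the case for 27.9% of all transcript clusters. Adgre4, whose fall led to the choice of genes, is 1 of these 8.

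In dysplasia against non-transgenic lung, Adgre4, Treml4, Plac8, Spn and Csf1r were lower, and the C1q genes did not pass the test. Adgre4 averaged 6.18 ± 0.81 in dysplasia and 7.78 ± 0.22 in non-transgenic lung (SD, n = 4 and 5), a difference of -1.60 ± 0.28 (standard error). Treml4 fell by 0.97 ± 0.15 and Plac8 fell by 0.91 ± 0.16, with limma adjusted p of 0.000287 and 0.000556. Spn fell by 0.68 ± 0.18 and Csf1r fell by 0.44 ± 0.09, with limma adjusted p of 0.0142 and 0.00301. Of the 9 genes tested, 4 fell, 0 rose and 5 did not pass, while 17.5% of all transcript clusters passed, 7.62% as higher and 9.86% as lower values. Arrays of the 2 groups did not overlap for 5 of the 10 genes, the chosen Adgre4 among them, and for 17.9% of all transcript clusters.

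The C1q chains and Adgre1 depended on the non-transgenic arrays used for this comparison. The differences were 0.46 ± 0.19 for C1qa, 0.47 ± 0.17 for C1qb, 0.37 ± 0.19 for C1qc and 0.42 ± 0.16 for Adgre1, with limma adjusted p of 0.125, 0.0817, 0.22 and 0.0944. Without non-transgenic replicates 4 and 5 all 4 genes passed, with differences of 0.65, 0.69, 0.68 and 0.73 for C1qa, C1qb, C1qc and Adgre1. Without replicates 1 to 3, in contrast, C1qc and Adgre1 differed by -0.09 and -0.03. Of the 9 genes, 7 passed without non-transgenic replicate 4 alone, where 4082 of all transcript clusters passed, against 4062 in the reported fit. The falls of Csf1r and Spn missed the threshold without replicates 1 to 3, at adjusted p of 0.0976 and 0.139. That of Spn was also lost with labelled sex and with age as covariates, at adjusted p of 0.159 and 0.0696.

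Unaltered transgenic lung had lower levels of Adgre4, Treml4, Plac8 and Cx3cr1 than non-transgenic lung. Adgre4 averaged 6.85 ± 0.51 in unaltered lung and 7.78 ± 0.22 in non-transgenic lung (SD, n = 4 and 5), and its fall by 0.94 ± 0.28 had a limma adjusted p of 0.0383. The same non-transgenic arrays entered the fall in lesions that led to its choice, so this p is no independent evidence. Treml4 fell by 0.81 ± 0.15 and Plac8 fell by 0.61 ± 0.16, with limma adjusted p of 0.00393 and 0.0176. Cx3cr1 fell by 0.55 ± 0.13 with a limma adjusted p of 0.0119. Of the 10 genes tested, 4 fell, 0 rose and 6 did not pass, while 14.3% of all transcript clusters passed, 2.47% as higher and 11.8% as lower values. Arrays of the 2 groups did not overlap for 4 of the 10 genes and for 14.7% of all transcript clusters.

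Calls in this comparison changed with the processing. The call of Adgre4 was lost in 15 of 32 alternatives, that of Plac8 in 7, that of Cx3cr1 in 4 and that of Treml4 in 1. Quantile normalization and cyclic loess each lost the falls of Adgre4, Plac8 and Cx3cr1, with limma adjusted p of 0.0521 to 0.0904. Treml4 alone still passed as lower, and Adgre1 passed as higher, at 0.58 in both. The median over all transcript clusters was -0.08 as deposited, 0.02 after quantile normalization and -0.01 after cyclic loess. With age as a covariate 0 of the 10 genes passed, and Adgre4 then had a difference of -0.90 and an adjusted p of 0.297. Without unaltered replicate 2, 2 of the 10 genes passed. The C1q chains differed by -0.06 ± 0.19 for C1qa, -0.33 ± 0.17 for C1qb and -0.13 ± 0.19 for C1qc, and C1qa turned to 0.08 after quantile normalization and to 0.09 after cyclic loess. Without non-transgenic replicates 1 to 3, C1qb and C1qc had differences of -0.66 and -0.60 that passed, and without replicates 4 and 5 C1qc differed by 0.17.

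**Figure D2:**
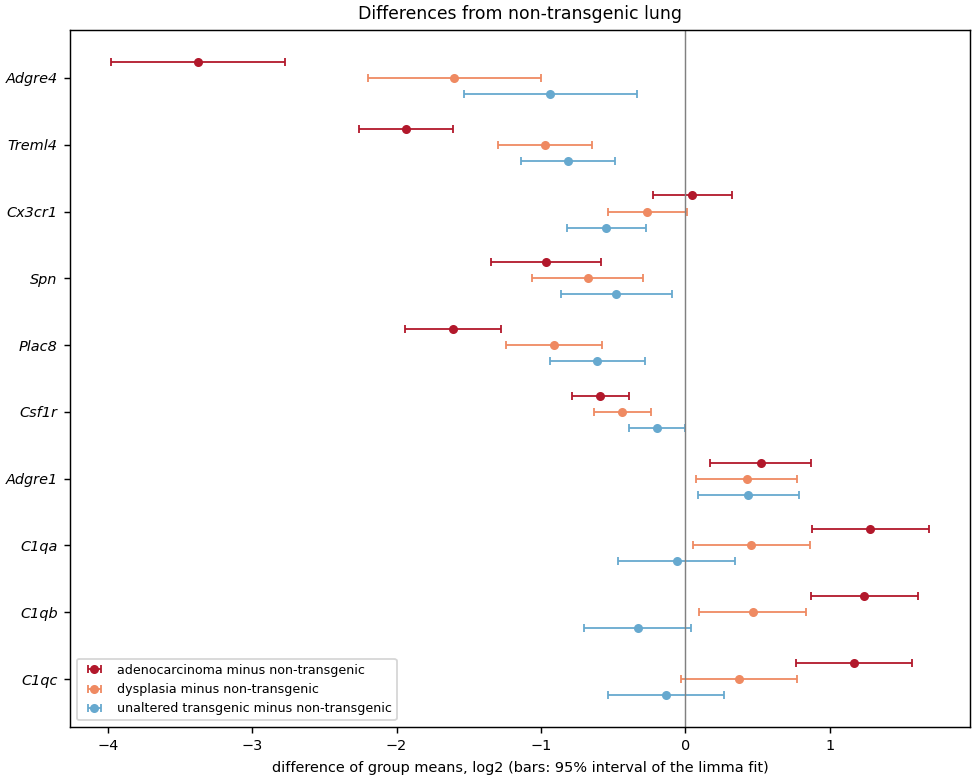
Differences of group means from non-transgenic lung on the log2 scale (horizontal axis) for each gene, with adenocarcinoma, dysplasia and unaltered lung in 3 colours and bars for the 95% interval of the limma fit. Adgre4, Treml4 and Plac8 lie left of 0 in all 3 comparisons, while the C1q genes lie furthest to the right in adenocarcinoma. The comparisons share the same non-transgenic arrays.

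Between dysplasia and unaltered lung of the same animals, the genes that passed the test were the C1q genes, and Adgre4, not tested, was lower in dysplasia by 0.66 ± 0.26. C1qb averaged 9.02 ± 0.16 in dysplasia and 8.22 ± 0.40 in unaltered lung (SD, n = 4 each), and it rose by 0.80 ± 0.16 with a limma adjusted p of 0.00246. C1qa and C1qc each rose by 0.51 ± 0.17, with limma adjusted p of 0.0485 and 0.0496. C1qb and C1qc were higher in dysplasia in 4 of 4 pairs and C1qa in 3 of 4. Of the 9 genes tested, 3 rose, 0 fell and 6 did not pass, while 20.4% of all transcript clusters passed, 15.1% as higher and 5.32% as lower values. Values did not overlap for C1qb, for 1 of the 10 genes, and for 21.0% of all transcript clusters.

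In the fit that gave each animal its own fixed term, a replicate block, C1qc was the only one of these calls left, and C1qa and C1qb had adjusted p of 0.156 and 0.0547. The same block lowered the number of transcript clusters called to 1881, against 4740. The call of C1qa was lost in 22 of 33 alternatives and that of C1qc in 19, so both sit at the threshold. Only 1 of the 9 genes passed when any of dysplasia replicates 1, 2 and 3, unaltered replicates 1, 2 and 4 or adenocarcinoma replicates 1 to 4 was left out. Adgre4 was lower in dysplasia in 4 of 4 pairs, by 0.23 to 1.13, and Plac8 and Csf1r were lower in 4 of 4 pairs without passing the test. Csf1r had a difference of -0.24 ± 0.08 with a limma adjusted p of 0.0552 and passed in 12 of the 33 alternatives.

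Set against unaltered transgenic lung, adenocarcinoma had lower levels of Adgre4, Treml4, Plac8 and Csf1r and higher levels of Cx3cr1 and the C1q genes. Adgre4 averaged 4.41 ± 0.17 in adenocarcinoma and 6.85 ± 0.51 in unaltered lung (SD, n = 4 each), a difference of -2.44 ± 0.30 with the same limit on its tumour values. Treml4 fell by 1.12 ± 0.16 and Plac8 fell by 1.0 ± 0.16, with limma adjusted p of 5.75e-05 and 0.000201, and Csf1r fell by 0.39 ± 0.10 with 0.00566. The C1q chains rose by 1.34 ± 0.20, 1.57 ± 0.18 and 1.30 ± 0.20 for C1qa, C1qb and C1qc. Cx3cr1 rose by 0.59 ± 0.14 with a limma adjusted p of 0.00329. Of the 9 genes tested, 4 rose, 3 fell and 2 did not pass, while 26.9% of all transcript clusters passed, 16.8% as higher and 10.1% as lower values. Values did not overlap for 8 of the 10 genes, the chosen Adgre4 among them, and for 30.6% of all transcript clusters. With age as a covariate, 2 of the 9 genes passed.

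Against dysplasia, adenocarcinoma had lower levels of Adgre4, Treml4 and Plac8 and higher levels of the C1q genes. Spn, Cx3cr1, Csf1r and Adgre1 did not pass the test and overlapped between the groups. Adgre4 averaged 4.41 ± 0.17 in adenocarcinoma and 6.18 ± 0.81 in dysplasia (SD, n = 4 each), a difference of -1.78 ± 0.30, again without a test. Treml4 fell by 0.97 ± 0.16 and Plac8 fell by 0.70 ± 0.16, with limma adjusted p of 0.000757 and 0.00981. C1qa, C1qb and C1qc rose by 0.82 ± 0.20, 0.77 ± 0.18 and 0.80 ± 0.20, with limma adjusted p of 0.0127, 0.0106 and 0.0148. Of the 9 other genes, 3 rose, 2 fell and 4 did not pass, while 12.0% of all transcript clusters passed, 4.48% as higher and 7.48% as lower values. Values did not overlap for 5 of the 10 genes, the chosen Adgre4 among them, and for 21.2% of all transcript clusters. With age as a covariate 0 of the 9 passed, with a limma adjusted p of 0.0631 for Treml4. Without the arrays naming 2 animals, 2 of the 9 passed.

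The growth factor genes of this cell lineage moved in opposite directions in the lesions. Csf1, the ligand of Csf1r made by many tissue cells, had 6.73, 6.44, 6.75 and 6.80 in adenocarcinoma, 7.78, 7.80, 7.37 and 7.89 in dysplasia, 8.12, 8.09, 8.04 and 8.09 in unaltered lung and 8.25, 8.58, 8.49, 8.35 and 8.25 in non-transgenic lung. The 4 groups did not overlap at all for this gene. It fell by 1.71 ± 0.11 in adenocarcinoma and fell by 0.68 ± 0.11 in dysplasia against non-transgenic lung, with limma adjusted p of 5.46e-09 and 0.000315.

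Il34, the other ligand of Csf1r, had 9.17, 9.12, 9.0 and 9.12 in adenocarcinoma, 8.44, 8.67, 9.04 and 8.51 in dysplasia, 7.97, 7.93, 8.09 and 8.08 in unaltered lung and 7.73, 7.96, 7.73, 8.11 and 8.17 in non-transgenic lung. Both kinds of lesion lay above both kinds of lung, which overlapped each other. Il34 rose by 1.16 ± 0.12 in adenocarcinoma and by 0.72 ± 0.12 in dysplasia against non-transgenic lung, with limma adjusted p of 1.12e-06 and 0.000397. Csf2, a growth factor that alveolar macrophages need, had 8.48, 8.30, 8.42 and 8.28 in adenocarcinoma, 7.86, 8.07, 8.66 and 8.0 in dysplasia, 7.18, 7.04, 7.38 and 7.59 in unaltered lung and 6.99, 7.27, 7.33, 7.31 and 7.12 in non-transgenic lung. It rose by 1.17 ± 0.15 in adenocarcinoma and by 0.94 ± 0.15 in dysplasia, with limma adjusted p of 1.08e-05 and 0.000243.

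**Figure D3:**
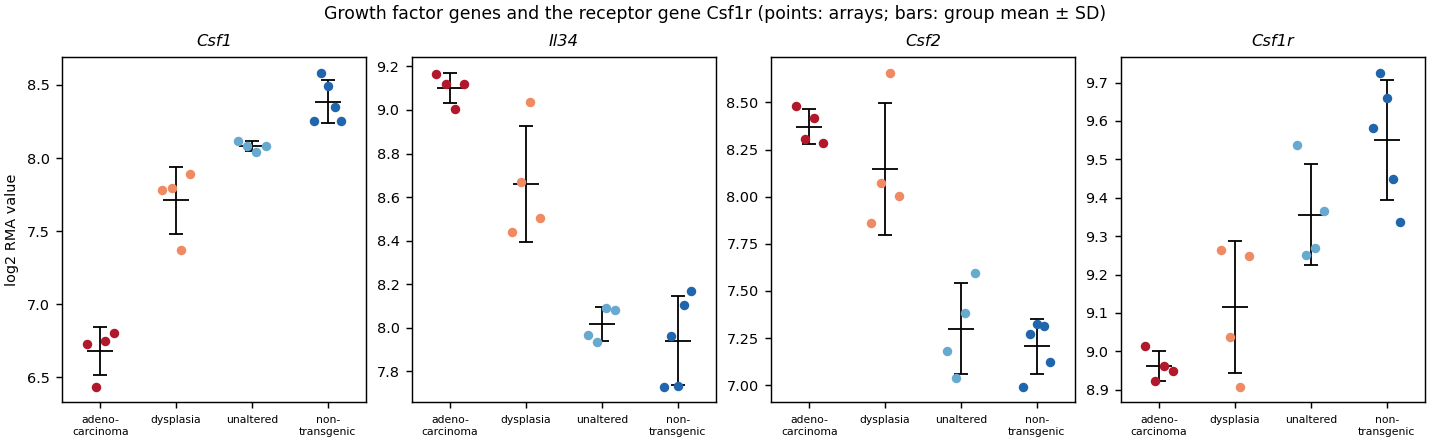
Log2 levels of the growth factor genes Csf1, Il34 and Csf2 and of the receptor gene Csf1r in adenocarcinoma, dysplasia, unaltered and non-transgenic lung. Points are arrays and bars give the group mean and SD. Csf1 is lowest in adenocarcinoma, at 6.44 to 6.80, and Il34 and Csf2 are higher in both kinds of lesion than in both kinds of lung.

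In unaltered lung against non-transgenic lung, Csf1, Il34 and Csf2 differed by -0.30 ± 0.11, 0.08 ± 0.12 and 0.09 ± 0.15, and none passed, with limma adjusted p of 0.0725, 0.717 and 0.727. The calls of these 3 genes in adenocarcinoma and dysplasia against non-transgenic lung held in all 32 alternatives. Between the lesions, Csf1 fell by 1.03 ± 0.11 and Il34 rose by 0.44 ± 0.12 in adenocarcinoma against dysplasia, with limma adjusted p of 1.69e-05 and 0.0313.

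Of the 13 measured ligands, receptors and regulators, 3 rose and 6 fell in adenocarcinoma against non-transgenic lung. In dysplasia the counts were 3 rises and 5 falls, and in unaltered lung Cd93 and Serping1 were the 2 falls and 0 genes rose. Of all transcript clusters, 13.6% were called higher and 16.4% lower in adenocarcinoma, and 7.62% higher and 9.86% lower in dysplasia. In unaltered lung these shares were 2.47% higher and 11.8% lower. Cd93, a surface protein of endothelial and myeloid cells, fell by 2.21 ± 0.12 in adenocarcinoma, and Serping1, the inhibitor of the C1 proteases, fell by 0.97 ± 0.08. In unaltered lung Cd93 fell by 0.54 ± 0.12 and Serping1 fell by 0.28 ± 0.08, with limma adjusted p of 0.0101 and 0.0383. These calls were lost in 4 and 17 of 32 alternatives. The complement gene C2 fell by 1.04 ± 0.16 and the lectin pathway protease gene Masp1 fell by 0.43 ± 0.09. Of the C1 protease genes measured, C1ra fell by 0.38 ± 0.12, a call lost in 7 of 32 alternatives, and the related C1rl rose by 0.65 ± 0.10, a call lost with age as a covariate. Cx3cl1 and the monocyte-attracting chemokine genes Ccl2 and Ccl7 each differed by 0.03 in adenocarcinoma, with limma adjusted p of 0.834, 0.889 and 0.837. The means of Ccl2, Ccl7 and Masp1 over all arrays lay below 6, under the array medians of 6.67 to 6.85. These genes are not shown to be above background, so the flat values of Ccl2 and Ccl7 do not show unchanged expression. Selplg, the ligand of P-selectin, had a difference of -0.20 with a limma adjusted p of 0.2. The C1q chains and C1rl rose in tumours in which Serping1, C2, Masp1 and C1ra fell, with the limits given for C1rl, Masp1 and C1ra.

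The counts of marker lists that follow stand beside the shares of all transcript clusters that passed against non-transgenic lung, which were 13.6% higher and 16.4% lower in adenocarcinoma, 7.62% higher and 9.86% lower in dysplasia, and 2.47% higher and 11.8% lower in unaltered lung. In both kinds of lesion against non-transgenic lung, other genes of patrolling monocytes mostly fell, as Adgre4 and Treml4 did. Of 11 measured, 7 fell and 1 rose in adenocarcinoma against non-transgenic lung, with a median difference of -0.69, against a median of 0.03 over all transcript clusters with 1 symbol. Klf2, a transcription factor of monocytes and endothelium, fell by 1.89 ± 0.12 and Cd300e, a receptor of patrolling monocytes, fell by 1.49 ± 0.14. Pglyrp1, a bactericidal protein of neutrophils and other cells, rose by 2.26 ± 0.24. In dysplasia 7 fell and 1 rose, with 4 falls and 1 rise when non-transgenic replicates 1 to 3 were left out. Against unaltered lung of the same animals, 2 genes rose, 2 fell and 7 did not pass in dysplasia. Of all transcript clusters, 15.1% were called higher and 5.32% lower there. In adenocarcinoma against unaltered lung 2 rose and 6 fell, beside shares of 16.8% higher and 10.1% lower. In unaltered lung against non-transgenic lung 4 fell and 0 rose. Cd300e fell by 1.0 ± 0.14, Klf2 fell by 0.69 ± 0.12, a call lost with age as a covariate, and Nr4a1, the nuclear receptor these monocytes depend on, fell by 0.85 ± 0.24, a call lost in 11 of 32 alternatives.

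Genes of classical monocytes and of interstitial macrophages had no common direction. Of 7 classical monocyte genes, 3 rose and 2 fell in adenocarcinoma against non-transgenic lung. F13a1, a clotting factor chain of monocytes and macrophages, fell by 2.58 ± 0.19, whereas Cd14, the co-receptor for endotoxin, rose by 1.89 ± 0.21 and the detoxifying enzyme gene Mgst1 by 1.18 ± 0.23. Without non-transgenic replicates 1 to 3 the counts were 1 rise and 3 falls, and the call of Mgst1 was lost, as it was with age as a covariate. In unaltered lung Cd14 rose by 0.83 ± 0.21, a call lost in 5 alternatives, and S100a4 fell by 0.53 ± 0.14, a call lost in 10.

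Of 16 interstitial macrophage genes, 7 rose and 7 fell in adenocarcinoma against non-transgenic lung. Lyve1, a hyaluronan receptor of lymphatic vessels and a subset of macrophages, fell by 3.24 ± 0.14. The lipid transfer protein gene Pltp fell by 2.69 ± 0.13 and the scavenger receptor gene Stab1 fell by 1.39 ± 0.14. In unaltered lung Mrc1, the mannose receptor, rose by 1.15 ± 0.15, while Ms4a6c fell by 0.59 ± 0.12 and Lyve1 fell by 0.49 ± 0.14. The call of Lyve1 was lost in 12 of 32 alternatives and that of Ms4a6c with age as a covariate. Without non-transgenic replicates 1 to 3 the counts in adenocarcinoma were 3 rises and 8 falls.

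Against non-transgenic lung, general myeloid genes and alveolar macrophage genes rose more often than they fell. Against unaltered lung, general myeloid genes had 1 rise and 1 fall in dysplasia and 4 rises and 3 falls in adenocarcinoma. Alveolar macrophage genes had 1 rise and 2 falls in dysplasia and 1 rise and 4 falls in adenocarcinoma. Of all transcript clusters, 15.1% were called higher and 5.32% lower in that comparison of dysplasia, and 16.8% and 10.1% in that of adenocarcinoma. Of 16 general myeloid genes, 9 rose and 4 fell in adenocarcinoma against non-transgenic lung. Against the same lungs, dysplasia had 9 rises and 1 fall and unaltered lung 10 rises and 2 falls. In adenocarcinoma the lysosomal protein gene Cd68 rose by 1.39 ± 0.09, the protease gene Ctss by 0.99 ± 0.15 and the cytokine receptor gene Csf2rb by 0.92 ± 0.09. In unaltered lung the Fc receptor gene Fcgr3 rose by 0.94 ± 0.12, Cd68 by 0.85 ± 0.09 and Csf2rb by 0.82 ± 0.09. Without non-transgenic replicates 1 to 3, the counts in dysplasia were 5 rises and 0 falls.

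Of 14 alveolar macrophage genes, 6 rose and 3 fell in adenocarcinoma and 6 rose and 1 fell in unaltered lung against non-transgenic lung. Chil3, a chitinase-like protein, rose by 1.45 ± 0.36 in adenocarcinoma, the proton pump subunit gene Atp6v0d2 by 1.27 ± 0.15 and Plet1 by 1.10 ± 0.20. In unaltered lung Atp6v0d2 rose by 1.14 ± 0.15, the lectin gene Siglecf by 0.97 ± 0.12 and Plet1 by 0.94 ± 0.20. The calls of Plet1 were lost with age as a covariate, and that in unaltered lung also with only the groups compared. The call of Chil3 was lost with age as a covariate and without non-transgenic replicates 1 to 3, where 4 genes of this list rose and 5 fell in adenocarcinoma.

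**Figure D4:**
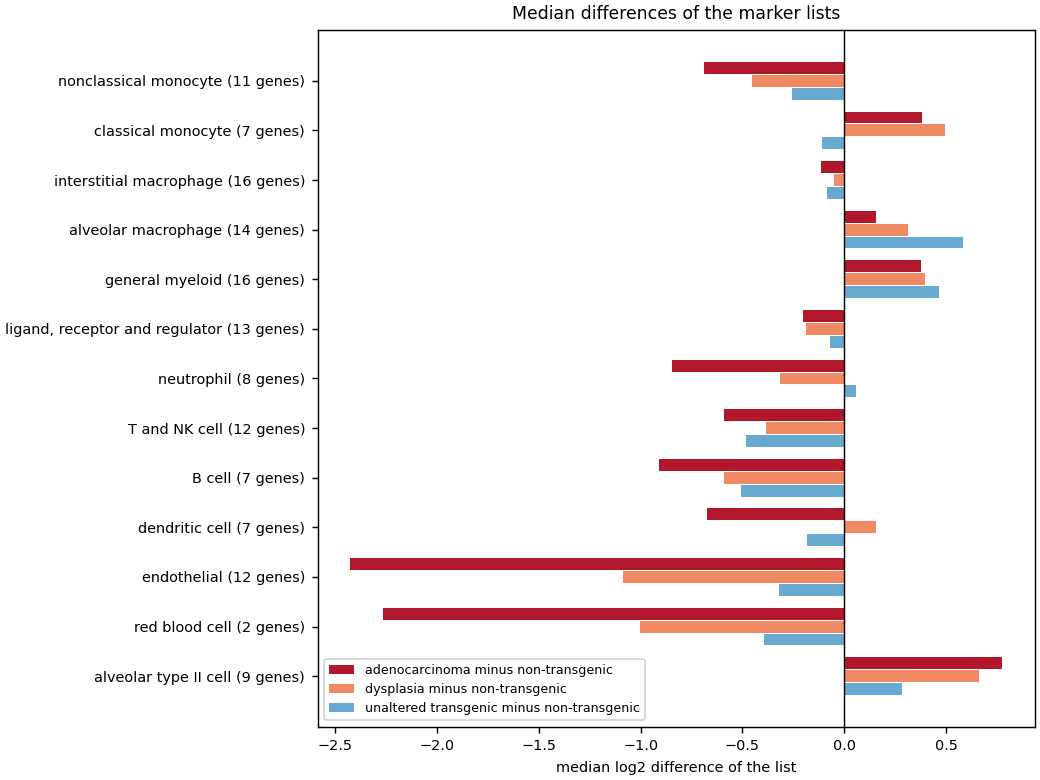
Median log2 difference (horizontal axis) of the measured genes of each marker list in adenocarcinoma, dysplasia and unaltered lung against non-transgenic lung. The median of the 12 endothelial genes is -2.43 in adenocarcinoma, that of the 11 patrolling monocyte genes, named nonclassical in the plot, is -0.69, and that of the 16 general myeloid genes is 0.38.

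In adenocarcinoma against non-transgenic lung, endothelial, red blood cell and lymphocyte genes fell together with the patrolling monocyte genes. All 12 endothelial genes fell in adenocarcinoma and all 12 in dysplasia against non-transgenic lung, with median differences of -2.43 and -1.09, and 4 fell in unaltered lung. Their mean level was 8.86 to 8.92 in adenocarcinoma, 9.81 to 10.67 in dysplasia, 10.87 to 11.14 in unaltered lung and 11.39 to 11.53 in non-transgenic lung. Both red blood cell genes measured, Alas2 and Slc4a1, fell in all 3 comparisons, and Alas2 fell by 3.75 ± 0.09 in adenocarcinoma. In unaltered lung the call of Slc4a1 was lost in 11 of 32 alternatives and that of Alas2 with age as a covariate. Of 12 T and NK cell genes 11 fell in adenocarcinoma, of 7 B cell genes 6, of 8 neutrophil genes 5 and of 7 dendritic cell genes 5, and 0 rose in any of these lists. The part of blood vessels, blood and other leukocytes in the falls of Adgre4, Treml4, Spn, Plac8 and Csf1r was not tested.

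Across the 17 arrays, Adgre4 followed the endothelial list closely. Its Pearson correlation with the mean of the 12 endothelial genes was 0.977, and 0.917 when each array was expressed as its deviation from its group mean. Replicate 3, of the same animal label, had the lowest Adgre4 and endothelial values in dysplasia (5.06 and 9.81) and in unaltered lung (6.19 and 10.87). In adenocarcinoma the highest Adgre4, 4.65, stood at an endothelial mean of 8.87, below the highest of 8.92. In non-transgenic lung the orders of Adgre4 and of the endothelial mean also differed. Over deviations from the group means, its correlation was 0.849 with the B cell list and -0.01 with the list of other patrolling monocyte genes. Over all 17 arrays the correlations of Adgre4 with these lists were 0.937 and 0.826. Treml4, whose group means had the same order, had a correlation of 0.922 with the endothelial list over all arrays and 0.305 over deviations. These are descriptions of 17 arrays that share groups and, in part, animals.

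**Figure D5:**
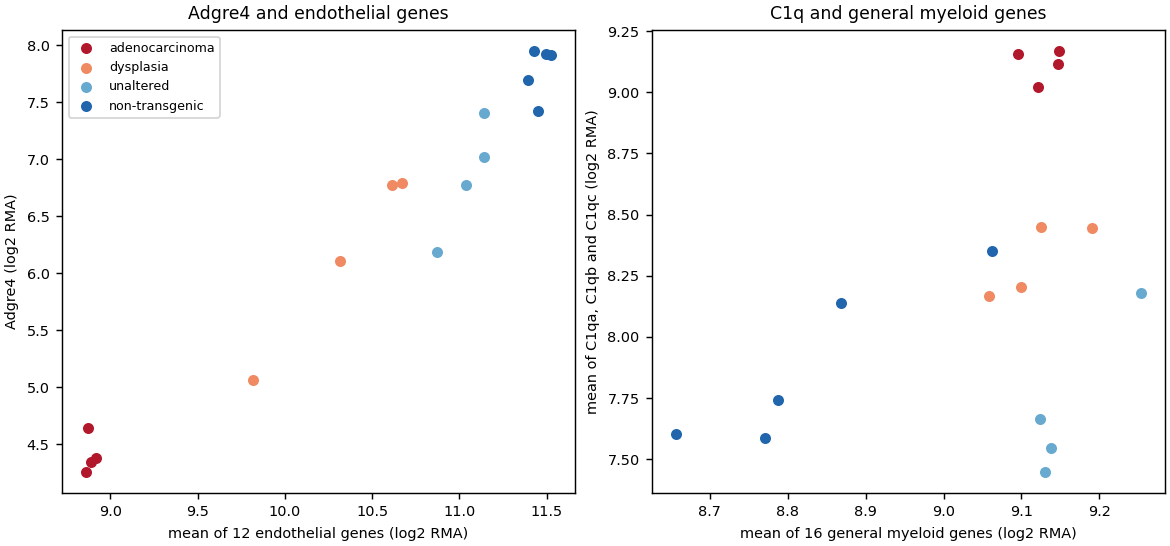
Left, the log2 level of Adgre4 (vertical axis) against the mean log2 level of 12 endothelial genes (horizontal axis). Right, the mean of C1qa, C1qb and C1qc against the mean of 16 general myeloid genes. Each point is an array, coloured by group. Adgre4 rises along the endothelial mean over the 17 arrays, and the adenocarcinomas have C1q means of 9.02 to 9.17 at general myeloid means of 9.10 to 9.15, which unaltered lung reaches with C1q means of 7.45 to 8.18.

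The genes most like Adgre4 over the 17 arrays, among 13541 candidates with 1 symbol, were Erg, Rasgrp3, Sema6d, Tmem71, Sox17, Phlpp1, Gimap6, Ppp2r1b, Tmtc2 and Sema6a, with Pearson correlations of 0.989 to 0.995. Over deviations from the group means these correlations were 0.912 to 0.959. Among the members, Adgre4 was most like Plac8, at 0.960, had a correlation near 0 with Cx3cr1, at -0.13, and was lowest with C1qa, at -0.88.

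The genes most like the mean of the C1q chains were Mt1, Rbp4, Qpct, Naprt, Itgb4, Pla2g7, Hibadh, Gsta4, Tlr4 and Chek2, with correlations of 0.962 to 0.978. Over deviations from the group means they were 0.792 to 0.917. The 3 chains had correlations of 0.92 to 0.95 with each other. The mean of the chains was 9.02 to 9.17 in adenocarcinoma, 8.17 to 8.45 in dysplasia, 7.45 to 8.18 in unaltered lung and 7.59 to 8.35 in non-transgenic lung, whereas the mean of the 16 general myeloid genes was 9.10 to 9.15 in adenocarcinoma, 9.06 to 9.19 in dysplasia, 9.12 to 9.25 in unaltered lung and 8.66 to 9.06 in non-transgenic lung. The C1q mean of every adenocarcinoma thus lay above that of every unaltered lung, while the general myeloid means of the same groups overlapped.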

How the data were processed

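Per the labels, the authors summarised the arrays as core exon values by RMA in Expression Console, and the deposited values are log2 levels per transcript cluster. GCOS is named in the submitters' processing notes. No version is given for these tools, and the genome build is not given in the sources used here. Array number limits the precision. Gene symbols came from the platform annotation, in which 14939 transcript clusters carried 1 symbol, 989 several and 7310 none.

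The deposited log2 values were fitted without further scaling by limma 3.58.1 in R 4.3.3. The model held 4 group means, took animals as random blocks through duplicateCorrelation (0.245), and used eBayes with Benjamini-Hochberg adjustment over 23238 transcript clusters at a threshold of 0.05. The pairing of dysplasia and unaltered lung comes from shared animal labels, and deviations from the group means had correlations of -0.01 to 0.21 in the 4 pairs. Labelled sex was left out, because Y-linked genes went against it on 4 arrays.

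The members, lists and tests were chosen with earlier results of these data known. Genes named from lists were the 3 with the largest called difference in adenocarcinoma and in unaltered lung against non-transgenic lung. Genes named for likeness were the 10 with the highest correlation. The ligand list was named in full. The alternatives included the block, sex, age, filters, scaling, array weights and each array left out. Leaving out sets of non-transgenic arrays from the list counts and a sex term from Y-linked genes were added after seeing the data.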

Additional observations from a re-analysis of the deposited data

Results flagged for a closer look

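Adgre1 in dysplasia replicate 3 had a log2 level of 8.47, apart from the 8.30 to 8.31 of the other 3 dysplasias, and this gap was 0.902 of the range of the group. All 40 combinations of gene and group were looked at in this way, and chance alone marks about 1 in 20 of them. C1qa, C1qb and C1qc of that sample had 8.57, 9.12 and 7.64, within or at the upper end of the dysplasia values.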

How the results depend on the processing

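Of 1930 single-gene results under an alternative, 1752 kept direction and side of the threshold, 100 lost the call, 55 gained it, 22 reversed and 1 moved, Adgre4 in adenocarcinoma against non-transgenic lung, which was -3.16 without non-transgenic replicates 1 to 3. These counts include Adgre4 in adenocarcinoma against dysplasia, with 31 kept and 1 lost, though its difference there is given without a test. The causes of the changes were not tested. Averaging all transcript clusters of a gene left the members as they were, since each has 1, and these results count among those kept. Leaving out an array of a group not compared also kept the difference itself and could change only its p-value. With age as a covariate, 4308 transcript clusters passed in adenocarcinoma against non-transgenic lung (6980 in the reported fit), 2394 in dysplasia (4062) and 180 in unaltered lung (3317), 1483 in adenocarcinoma against unaltered lung (6241) and 352 against dysplasia (2780). Members passing with age were 0 in unaltered lung against non-transgenic lung, 1 in dysplasia against unaltered lung, 2 in adenocarcinoma against unaltered lung and 0 against dysplasia.

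In dysplasia against non-transgenic lung (4 members), 8 passed with array weights, without non-transgenic replicates 4 and 5 or with sex by Y-linked genes, and 2 without replicates 1 to 3. The transcript clusters passing there numbered 5662, 5193, 5269 and 3957 in that order, against 4062 in the reported fit. The sex term from Y-linked genes marks only non-transgenic replicates 4 and 5. Its differences equal those found without these arrays, so it is no separate check. In unaltered against non-transgenic lung (4 members), 2 passed with labelled sex, quantile normalization, cyclic loess or without the arrays naming 2 animals, and 7 with array weights. After quantile normalization and cyclic loess, 1 of the 2 was a rise of Adgre1. Transcript clusters in this comparison numbered 1912 with labelled sex, 1425 with only the groups compared, 1099 without the arrays naming 2 animals and 4754 with array weights. Quantile normalization gave 1793 (971 higher) and cyclic loess 1955 (984 higher), against 574 higher of 3317. In dysplasia against unaltered lung (3 members), 1 passed without the random block, with the fixed replicate block, with labelled sex, with only the groups compared or without the arrays naming 2 animals, and 5 with a mean of at least 6. Its transcript clusters numbered 1881 with the replicate block, 3270 without the random block, 4558 with labelled sex and 3688 with only the groups compared. They numbered 2437 without the arrays naming 2 animals and 5456 with a mean of at least 6. By quantile normalization 2218 of 4572 were higher and by cyclic loess 2297 of 4329, against 3504 of 4740. The replicate block was fitted for this comparison alone, and besides C1qa and C1qb it changed no member call there. In adenocarcinoma against unaltered lung, 3052 of 6192 were higher by cyclic loess, against 3903 of 6241. In adenocarcinoma against dysplasia, where Adgre4 is left out, 3 of the 9 members rose and 2 fell in the reported fit. Without the arrays naming 2 animals, 1 rose and 1 fell. Transcript clusters in this comparison numbered 5378 with array weights and 1583 without the arrays naming 2 animals. By quantile normalization 1507 of 3062 were higher, against 1042 of 2780.

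With each array left out in turn, 7 to 8 members passed in adenocarcinoma and 4 to 7 in dysplasia against non-transgenic lung. In unaltered lung 2 to 5 passed. Against unaltered lung, 1 to 3 passed in dysplasia and 7 to 8 in adenocarcinoma. In adenocarcinoma against dysplasia, without Adgre4, 2 to 3 members rose and 2 fell. Transcript clusters ranged over 6040 to 7207, 3325 to 4265, 1871 to 3543, 3348 to 5082, 5500 to 6567 and 1928 to 3160 in that order, with 1871 without unaltered replicate 2.

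Every reversed sign belonged to a difference that had not passed in the reported fit. Cx3cr1 in adenocarcinoma against non-transgenic lung was -0.057 with age, -0.0011 without the arrays naming 2 animals, -0.14 without non-transgenic replicates 1 to 3 and between -0.021 and 0.15 with each array left out. In dysplasia without replicates 1 to 3, Adgre1 was -0.029 and C1qc -0.092. In unaltered against non-transgenic lung, C1qa was 0.083 by quantile normalization, 0.091 by cyclic loess, 0.016 with array weights, 0.135 without replicates 4 and 5 or with sex by Y-linked genes, and -0.24 to 0.12 with each array left out. C1qc was 0.17 without replicates 4 and 5 or with sex by Y-linked genes, and Adgre1 was -0.018 without replicates 1 to 3. Adgre1 was between -0.073 and 0.059 with each array left out in dysplasia against unaltered lung, -0.18 with age and -0.0048 by cyclic loess in adenocarcinoma against unaltered lung, and -0.17 with age against dysplasia.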
